A study of Acartia tonsa with 26 samples.

Results

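The cuticle protein genes of the calanoid copepod Acartia tonsa described here are the 48 genes, of 9502 in the deposited table of genes that change during uninterrupted (subitaneous) development, whose assembly identifier carries the chitin-binding domain Chitin_bind_4. Identifiers with a protein match whose name starts with CU and a digit, CUO or CUD were also eligible, but all of those already carried the domain. RNA-seq libraries were made from pooled eggs, a mixture of all cells of many embryos. Quiescent eggs (26 h, gastrulation, n = 3) had been moved to 4 °C and anoxia. Subitaneous eggs had 4 to 16 cells at 3 h, were in gastrulation at 7 h, in organogenesis at 14 h, forming appendages at 24 h and about to hatch as nauplii at 42 h, with n = 5, 5, 4, 4 and 5 libraries in that order. All eggs came from a population kept dark in 60 L tanks at a salinity of 32 and 16.9 °C; no genotype or strain is given in the labels. The libraries of a group are called technical replicates, so the p-values below measure only the spread between such libraries.

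The exoskeleton of arthropods is a layered material of chitin fibres in a protein matrix, secreted outwards by the epidermis and shed at each moult. Its structural proteins mostly belong to a large family that shares a chitin-binding stretch known as the Rebers and Riddiford consensus, and in insects different members of the family serve soft and hard cuticle and different stages. Resilin, described in Drosophila and locusts, is a rubber-like member of the family found where cuticle has to stretch and recoil. A copepod embryo forms the cuticle of the nauplius, the first free-swimming larva, inside the egg.

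Among the 48 genes, 25 matched an insect cuticle protein without resilin, 7 matched Drosophila resilin, 2 matched both, and 14 had the domain and no such match. The most frequent matches after resilin were CU20_TENMO, from the mealworm, and CU07_LOCMI, from the migratory locust, with 5 genes each. Such a match names a related insect protein and does not identify the copepod gene. A signal peptide, the mark of a secreted protein, was predicted for 34 of the 48 (70.8%), against 15% of all genes in the table. In 5 assembly clusters 2 of the genes share a cluster number (DN1098, DN2466, DN3412, DN3414 and DN6231), and the values of these 10 genes are uncertain where reads could be split between near-identical copies. Of the 48, 15 also stood in the authors' second table, of genes that set quiescent eggs apart from 7 h or 14 h eggs.

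Values are the deposited normalized signal, on which 1 unit stands for 81.8 to 112 reads. A value of 1 thus carries a counting error of 0.797 to 1.24 (95% exact Poisson interval) in the library with the fewest reads per unit. The reads in the table came to between 4.30e+06 and 2.42e+07 per library. The library labelled 42 h D stood apart: over all genes it correlated (rank) at 0.302 with the other 42 h libraries, at 0.836 with 3 h eggs and at 0.834 with quiescent eggs, so results on 42 h eggs are given with and without it. All genes had been selected by the authors as differentially expressed in these samples, so a call here is not independent evidence of change. Testing was limited to the 5201 genes that reached a value of 1 in 3 or more libraries, among them 37 of the 48; of these 37, 5 passed only through the 42 h libraries, where they were high.

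As a group, on the deposited scale, the cuticle protein genes were at their lowest in quiescent, 3 h and 7 h eggs, and at their highest in eggs about to hatch. Summed over the 48 genes, the value was 90.2, 154 and 166 in quiescent libraries A, C and D. In development it was 145, 131, 215, 124 and 119.6 in 3 h libraries A to E, 123, 113, 140.0, 101 and 143 in 7 h libraries A to E and 271, 279, 312 and 508 in 14 h libraries A, B, C and E. Later it was 486, 676, 633 and 365 in 24 h libraries A to D and 827, 1472, 3339.8, 105 and 2344 in 42 h libraries A to E. Apart from 42 h D, which lay among the early stages, every 42 h library exceeded every library of the other groups in this sum. The 14 h and 24 h libraries lay above all 7 h libraries. The sum of all genes in the table was also high in 42 h B, C and E, at 259824, 249931 and 150887, against 52153 to 97902 at 24 h. As a percent of the reads in the table, the 48 genes held 0.981, 0.567, 1.34, 0.137 and 1.55 in 42 h libraries A to E. At 24 h they held 0.855, 1.30, 1.05 and 0.373 in libraries A to D, so on this measure the 2 stages overlapped. The sum rests on few genes: DN3414_c1_g1, DN3412_c0_g1 and DN3412_c1_g1 took from 30.6% to 52.0% of it, depending on the library. These are shares of reads, not of molecules, since transcript lengths are not given.

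**Figure D1:**
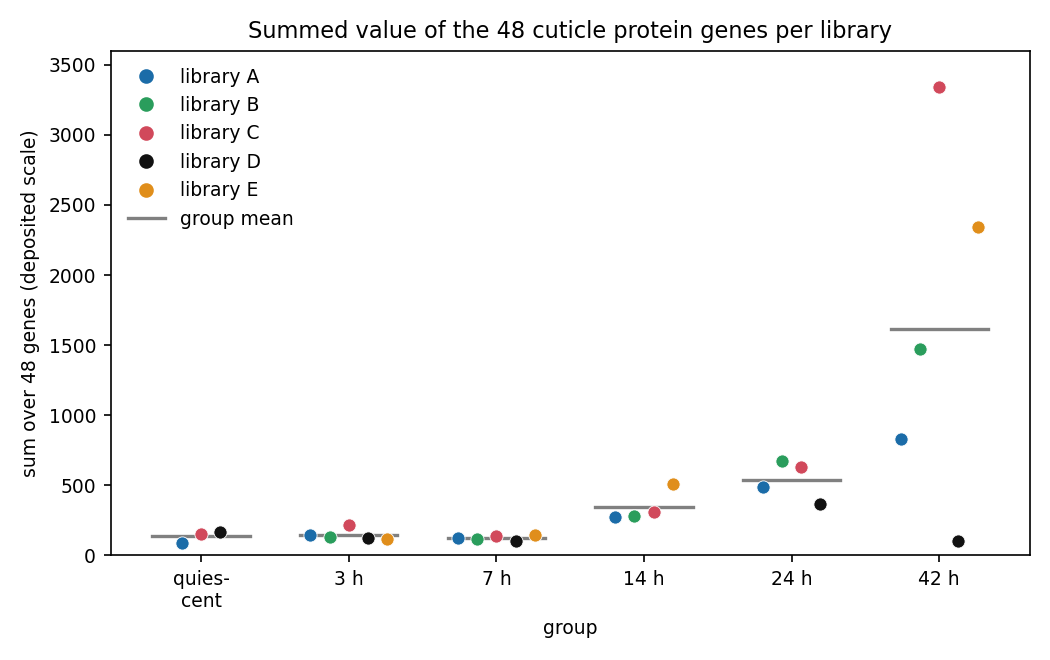
Summed deposited value of the 48 cuticle protein genes (vertical axis) in each of the 26 libraries (points, coloured by library letter), by group, with group means as grey lines. The 42 h libraries spread from 105 in D to 3339.8 in C, while the 7 h libraries lie between 101 and 143.

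The highest group mean fell at 42 h for 47 of the 48 genes, against 70.0% of all genes in the table, and at 14 h for DN50616_c0_g1. The lowest group mean fell at 7 h for 27, in quiescent eggs for 9, at 3 h for 9 and at 24 h for 3. In bulk libraries, fewer cuticle-forming cells and less RNA per cell cannot be told apart. Under the scaling alternatives the median change of all genes moved by more than 0.1 (log2): for 14 h against 7 h it was 0.41 on the deposited scale, 0.07 with median-ratio rescaling and -0.08 with quantile normalization, and for 42 h against 24 h it was 0.66, 0.17 and 0.04. The median over the 37 tested cuticle genes stood above that of all genes under all 3 scalings for 14 h against 7 h (0.89, 0.23 and 0.18), for 24 h against 14 h (0.30, 0.17 and 0.37, against -0.03, -0.06 and 0.07 for all genes) and for 42 h against 24 h (1.03, 0.20 and 0.26). With DESeq2 on the recovered reads it stood above for 14 h against 7 h (0.43, against 0.32 for all genes) and 24 h against 14 h (0.45, against -0.20), but below for 42 h against 24 h (0.41, against 0.78).

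**Figure D2:**
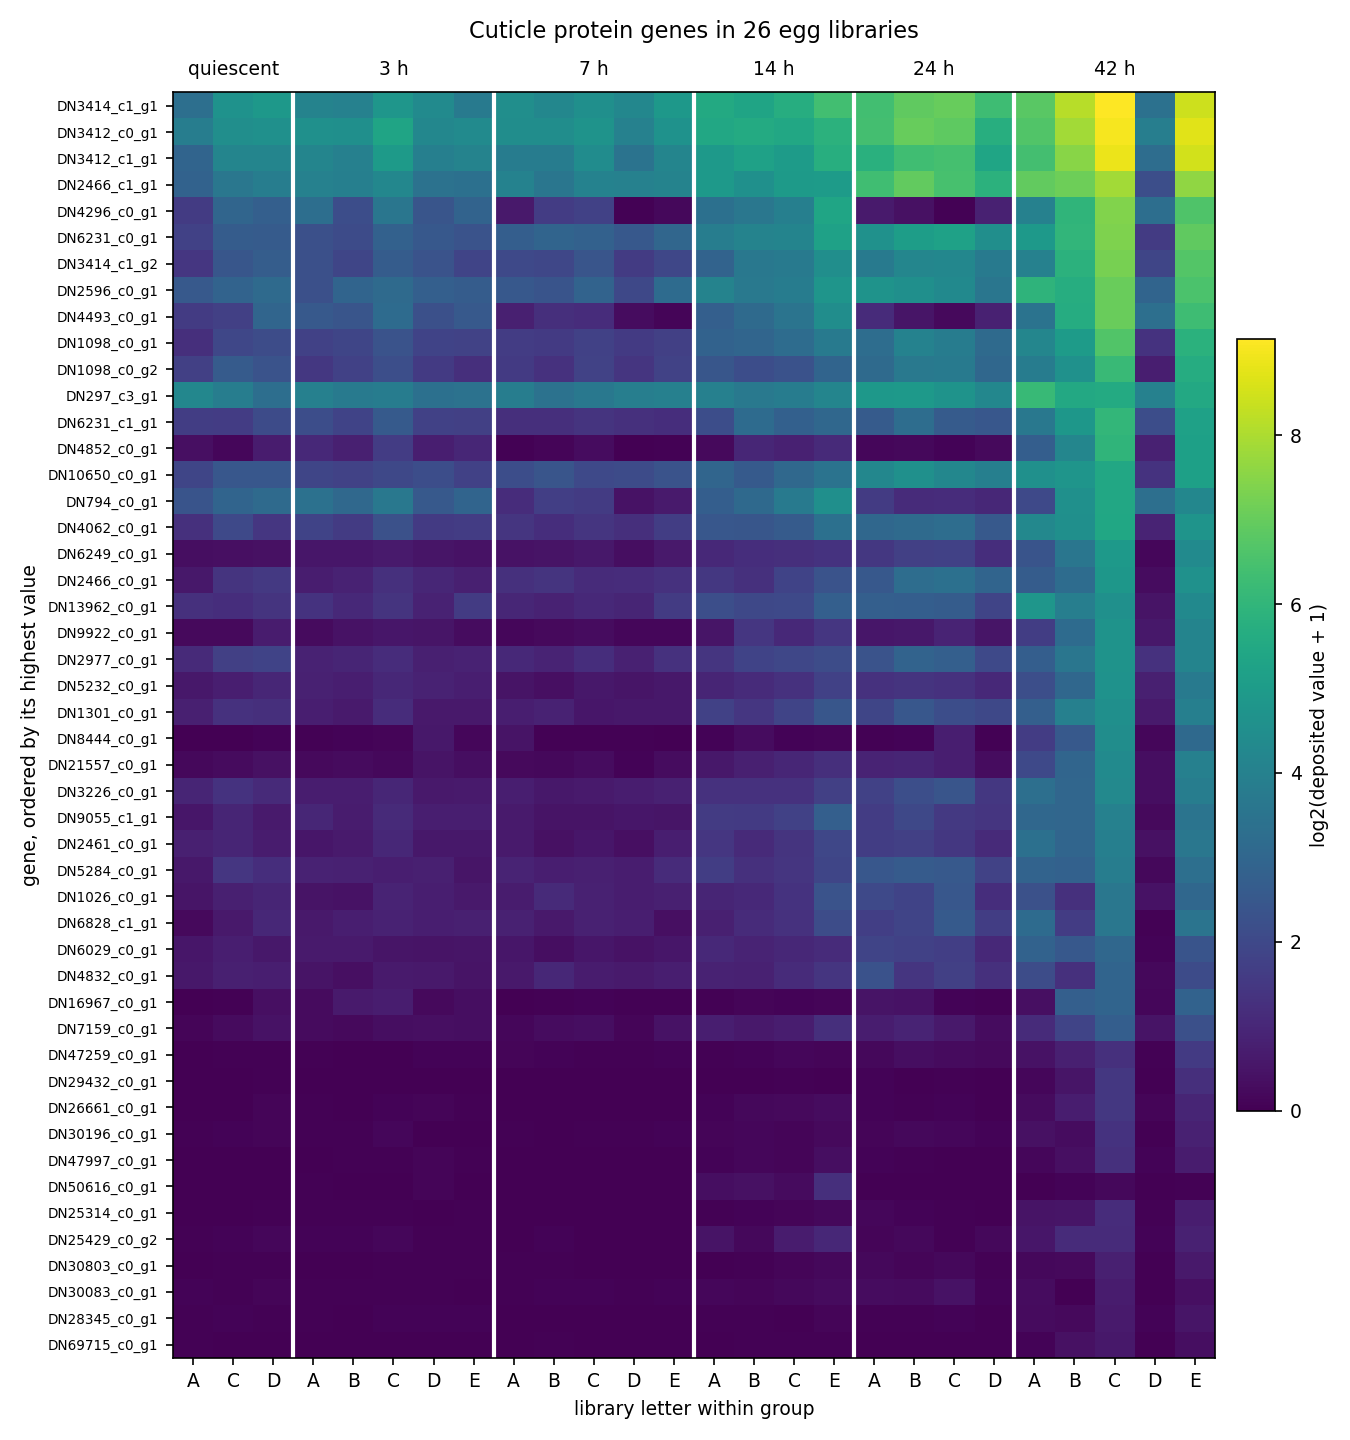
Heat map of log2(deposited value + 1) for the 48 cuticle protein genes (rows, ordered by their highest value) in 26 libraries (columns, by group and library letter). Most rows brighten at 14 h and again towards 42 h, 42 h D is dark, and DN4296_c0_g1, DN4493_c0_g1 and DN794_c0_g1 are dark at 7 h and 24 h.

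The 3 genes with the highest mean values rose like the sum in their group means from 7 h to 42 h. Unlike the sum, all 3 had 42 h A within the range of the 24 h libraries. DN3414_c1_g1, which matches cuticle proteins of mosquito, locust and mealworm as well as resilin, had 9.12, 24.2 and 28.4 in quiescent libraries A, C and D. In subitaneous eggs it had 15.9, 15.2, 26.8, 19.8 and 12.3 in 3 h libraries A to E, 22.1, 17.9, 22.5, 17.5 and 28.1 in 7 h libraries A to E and 45.5, 39, 50.6 and 81.3 in 14 h libraries A, B, C and E. It then had 80.6, 118, 126 and 77.4 in 24 h libraries A to D and 111, 286, 560.4, 9.48 and 349 in 42 h libraries A to E. The 14 h libraries lay wholly above the 7 h libraries, while the 24 h libraries overlapped those of 14 h through E, and 42 h D was at the level of the lowest quiescent library. DN3412_c0_g1, a mealworm cuticle protein match, averaged 19.4 ± 5.03 in quiescent eggs (SD, n = 3). Its subitaneous means at the 5 stages in turn were 24.4 ± 8.47, 21.3 ± 3.79, 48.1 ± 6.35, 95.1 ± 34.4 and 256 ± 210.5 (SD, n = 5, 5, 4, 4 and 5). DN3412_c1_g1, with the domain only, averaged 13.5 ± 5.82 in quiescent eggs and 18.5 ± 6.76, 14.8 ± 3.99, 37.1 ± 10.1, 65.2 ± 21.2 and 220.3 ± 191 at those stages. None of the 3 passed the test between any consecutive stages with all libraries. Once 42 h D was left out, all 3 rose at 14 h against 7 h and at 42 h against 24 h; DN3414_c1_g1 then changed by 1.25 ± 0.37 (SE, adjusted p = 0.00815) and 1.51 ± 0.39 (SE, adjusted p = 0.00152) on the log2(value + 1) scale in limma with Benjamini-Hochberg adjustment.

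DN4296_c0_g1, DN4493_c0_g1 and DN794_c0_g1 took another course: present at 3 h, low at 7 h, up at 14 h, low again at 24 h and at their highest at 42 h. All 3 carry a signal peptide; DN4296_c0_g1 and DN4493_c0_g1 match locust cuticle proteins (CU21_LOCMI and CU07_LOCMI) and DN794_c0_g1 has the domain only. DN4296_c0_g1 had 0.548, 2.08, 2.36, 0.037 and 0.149 in 7 h libraries A to E, against 8.81, 3.5, 11.1, 4.31 and 6.42 in 3 h libraries A to E. Each 7 h library lay below each 3 h library. It had 9.4, 11.2, 14.5 and 40.2 in 14 h libraries A, B, C and E and 0.582, 0.333, 0.029 and 0.776 in 24 h libraries A to D. All 14 h libraries lay above all 7 h libraries, with E well above the rest, and all 24 h libraries were under 1. At 42 h it had 15.1, 61.6, 167, 8.86 and 98.1 in 42 h libraries A to E, each above every 24 h library. Its log2 changes were -2.02 ± 0.60 (SE, adjusted p = 0.0234) for 7 h against 3 h, 3.23 ± 0.63 (SE, adjusted p = 4.36e-04) for 14 h against 7 h, -3.59 ± 0.67 (SE, adjusted p = 4.94e-04) for 24 h against 14 h and 4.97 ± 0.63 (SE, adjusted p = 2.36e-05) for 42 h against 24 h.

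DN4493_c0_g1 had 0.727, 1.32, 1.25, 0.22 and 0.085 in 7 h libraries A to E, against 4.9, 4.31, 8.23, 3.66 and 4.84 in 3 h libraries A to E. It had 5.8, 7.89, 10.5 and 21.3 in 14 h libraries A, B, C and E and 1.19, 0.416, 0.174 and 0.776 in 24 h libraries A to D. At 42 h it had 10.2, 48.8, 132, 9.17 and 78 in 42 h libraries A to E. As in DN4296_c0_g1, neighbouring stages did not overlap at any of the 4 steps, and 42 h A and D were the lowest of their group. The changes were -1.87 ± 0.54 (SE, adjusted p = 0.02), 2.77 ± 0.57 (SE, adjusted p = 7.64e-04), -2.81 ± 0.61 (SE, adjusted p = 0.00202) and 4.49 ± 0.57 (SE, adjusted p = 2.36e-05) for the same 4 steps.

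DN794_c0_g1 had 1.23, 2.24, 1.98, 0.375 and 0.563 in 7 h libraries A to E, against 9.73, 7.44, 11.6, 4.86 and 6.61 in 3 h libraries A to E. It had 5.69, 7.72, 12.5 and 22.3 in 14 h libraries A, B, C and E and 2, 1.16, 1.24 and 1.04 in 24 h libraries A to D. At 42 h it had 3.07, 23.1, 43.1, 9.2 and 17.6 in 42 h libraries A to E. Here 42 h A, not D, was the lowest library at 42 h, yet still above all 24 h libraries. Its log2 changes over the 4 steps were -2.02 ± 0.46 (SE, adjusted p = 0.00257), 2.44 ± 0.49 (SE, adjusted p = 5.81e-04), -2.32 ± 0.52 (SE, adjusted p = 0.00283) and 2.71 ± 0.49 (SE, adjusted p = 3.26e-04). DN4852_c0_g1, a silkworm cuticle protein match, was also lower at 7 h and 24 h than at the stages around them, with means of 1.12, 0.083, 0.755, 0.124 and 24.2 from the first stage to the last, but passed the limma test at the last step only.

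**Figure D3:**
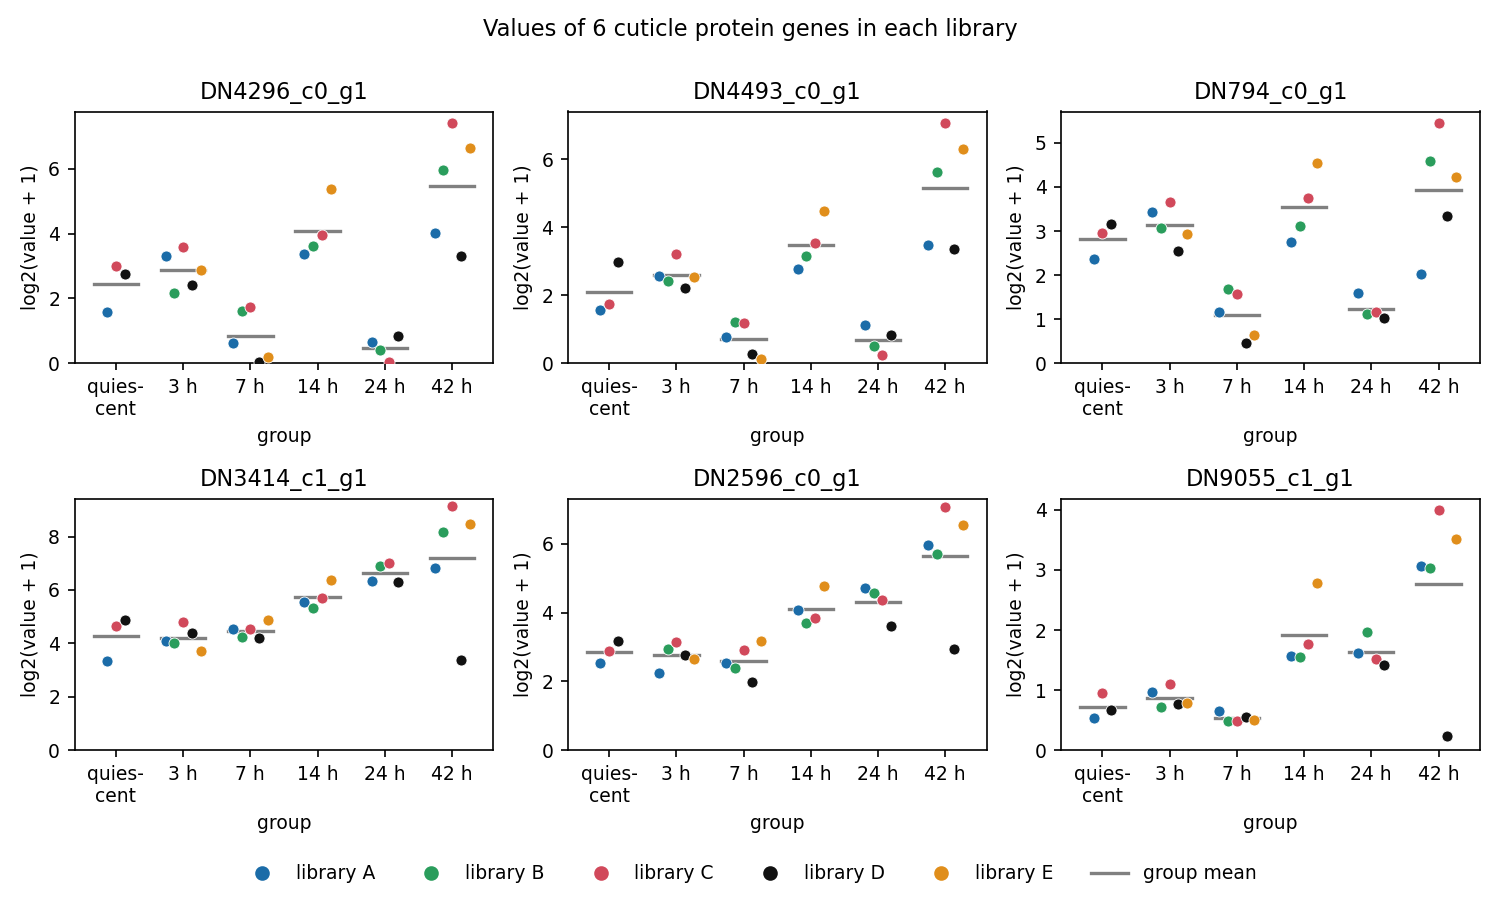
Values of 6 cuticle protein genes as log2(deposited value + 1) in each library (points, coloured by letter) by group, with group means of these log2 values as grey lines. The upper 3 genes are low at 7 h and 24 h, whereas the lower 3 stay up at 24 h; in all 6, library 42 h D lies below 42 h C and E.

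For gastrulation at 7 h against the 4 to 16 cell stage at 3 h, limma called those 3 genes and no other member. Of the 37 tested, 3 fell and 0 rose, where limma called 11.1% of all tested genes lower and 0.0961% higher; edgeR called 5 lower (16.4% of all tested genes), adding DN4852_c0_g1 and DN16967_c0_g1. The median log2 change was -0.08, against -0.06 for all tested genes, and turned to 0.15 with quantile normalization. That scaling gave 1 rise and 3 falls (11.2% and 9.31% of all tested genes), and median-ratio rescaling 0 rises and 6 falls (3.61% and 16.9%). In 9 of the 48 genes every 7 h library lay below every 3 h library (18.3% of all genes did so): besides those 3 and DN4852_c0_g1 they were DN1098_c0_g1, DN5232_c0_g1, DN6231_c1_g1, DN9055_c1_g1 and DN16967_c0_g1. The falls of DN4296_c0_g1 and DN4493_c0_g1 were lost when 3 h C, 7 h D or 7 h E was left out, leaving 1 fall each time, DN794_c0_g1.

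Between 7 h and 14 h, when organs form, values were higher across the family: the log2 change was above 0 in all 37 tested genes on the deposited scale, in 27 with median-ratio rescaling and in 22 with quantile normalization. In 35 of all 48 genes every 14 h library lay above every 7 h library (52.6% of all genes did so). By the test 7 of 37 rose (18.9%) and 0 fell, where 21.1% of all tested genes were called higher and 2.48% lower; edgeR called 19 higher (42.7% of all tested genes). With 42 h D left out, which enters this step only through the shared estimate of spread, 27 rose (73.0%), where 41% of all tested genes did. Besides the 3 described above, the risers with all libraries were DN6231_c1_g1 (1.55 ± 0.49 (SE, adjusted p = 0.0207)), DN2596_c0_g1 (1.5 ± 0.54 (SE, adjusted p = 0.0439)), DN9055_c1_g1 (1.38 ± 0.46 (SE, adjusted p = 0.0301)) and DN25429_c0_g2 (0.58 ± 0.17 (SE, adjusted p = 0.0147)).

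DN6231_c1_g1, a locust cuticle protein match, had 3.49, 8.06, 5.97 and 7.34 in 14 h libraries A, B, C and E, against 1.34, 1.33, 1.57, 1.39 and 1.26 in 7 h libraries A to E. DN2596_c0_g1, a hornworm cuticle protein match, had 16, 12, 13.2 and 26.5 in 14 h libraries A, B, C and E, against 4.74, 4.21, 6.53, 2.99 and 8.1 in 7 h libraries A to E. In both genes all 14 h libraries lay above all 7 h libraries, by a wide gap in the first. DN9055_c1_g1, a cockroach cuticle protein match, had 1.97, 1.94, 2.39 and 5.87 in 14 h libraries A, B, C and E, against 0.578, 0.399, 0.401, 0.476 and 0.425 in 7 h libraries A to E; 14 h E stood clear of the other 3. Library 14 h E gave the highest 14 h value in 42 of the 48 genes (52.0% of all genes); without it 3 genes rose, and without 42 h C 11 did. The split was 5 rises and 1 fall with median-ratio rescaling (22.6% and 11.3% of all tested genes), and 4 rises and 1 fall with quantile normalization (15.4% and 19.5%).

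From organogenesis to the formation of appendages at 24 h, calls were few. The test called 3 of 37 lower and 0 higher, beside 9.61% and 2.83% of all tested genes; the 3 were DN4296_c0_g1, DN4493_c0_g1 and DN794_c0_g1, which had also fallen at 7 h. In 6 genes the 24 h libraries lay wholly above those of 14 h and in 6 wholly below (10.5% and 16.6% of all genes). The 6 above were DN2466_c1_g1, DN2466_c0_g1 and DN1098_c0_g2, all resilin matches, DN10650_c0_g1, matching CULP1_HELAM, DN297_c3_g1, matching the silk moth protein CU12_HYACE, and DN47259_c0_g1, a locust match too low to test. DN2466_c1_g1 had 79.1, 122, 87.7 and 57.3 in 24 h libraries A to D, against 29.7, 23, 30.7 and 31.1 in 14 h libraries A, B, C and E. DN10650_c0_g1 had 17.5, 23.1, 17.9 and 14.5 in 24 h libraries A to D, against 6.85, 5.01, 7.44 and 10.2 in 14 h libraries A, B, C and E. In these 2 genes each 24 h library was clear of the highest 14 h library. With all libraries neither passed the test (adjusted p = 0.212 and 0.166). When 42 h D was left out, 6 genes rose and 4 fell (12.9% and 16.1% of all tested genes), with DN2466_c1_g1 changed by 1.52 ± 0.27 (SE, adjusted p = 1.90e-04). The counts of rises and falls were 3 and 4 with median-ratio rescaling (9.02% and 15.4% of all tested genes) and 6 and 4 with quantile normalization (17% and 11.8%).

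DN50616_c0_g1, with the domain and a signal peptide only, was the single gene that did not peak at 42 h. It had 0.277, 0.322, 0.21 and 1.34 in 14 h libraries A, B, C and E. At 7 h and 24 h its highest values were 0.01 and 0.01, at 3 h 0.079, in quiescent eggs 0.009 and at 42 h 0.145. All 4 of its 14 h libraries were thus above all other libraries, E most of all. It did not reach the value filter and was not tested.

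In nauplii about to hatch, 16 of the 37 tested genes were higher than at 24 h and 0 lower, where 44.9% of all tested genes were called higher and 5.33% lower. All 5 members that had entered the test only through their 42 h values (DN8444_c0_g1, DN16967_c0_g1, DN21557_c0_g1, DN7159_c0_g1 and DN25429_c0_g2) are among these 16, and the way they entered had to favour this call. Of the 32 that passed the filter on the other libraries, 11 rose (34.4%), where 26.1% of the 3413 genes that did so rose; without 42 h D 30 of the 32 rose, where 45.6% of those genes did. Leaving out 42 h D, 35 rose (62.5% of all tested genes did), and the median log2 change was 1.73, against 0.93 for all genes. The steepest were DN4296_c0_g1 and DN4493_c0_g1, followed by DN4852_c0_g1, which had 5.7, 17.1, 62.1, 0.794 and 35.1 in 42 h libraries A to E, against 0.109, 0.148, 0.068 and 0.17 in 24 h libraries A to D. Even 42 h D exceeded all 24 h libraries in this gene, whose log2 change was 3.62 ± 0.59 (SE, adjusted p = 1.74e-04). DN9922_c0_g1, a resilin match, had 2.12, 8.08, 25.1, 0.5 and 16.4 in 42 h libraries A to E, against 0.473, 0.499, 0.871 and 0.425 in 24 h libraries A to D. All 42 h libraries but D were above the 24 h range, and D lay inside it; the change was 2.21 ± 0.50 (SE, adjusted p = 0.0011).

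DN8444_c0_g1, a locust cuticle protein match, had 2.09, 4.93, 21, 0.109 and 7.71 in 42 h libraries A to E, against 0.045, 0.055, 0.697 and 0.042 in 24 h libraries A to D. DN21557_c0_g1, which matches locust and mosquito cuticle proteins, had 3, 6.8, 19.9, 0.261 and 14.9 in 42 h libraries A to E, against 0.872, 0.906, 0.707 and 0.244 in 24 h libraries A to D. In both, 42 h D fell within the 24 h range and the other 42 h libraries lay above it. Both were tested only because of these 42 h values, so no test is given for them. DN6231_c1_g1 had 11.7, 27.5, 65.4, 3.44 and 36.5 in 42 h libraries A to E, against 5.13, 8.55, 5.1 and 4.64 in 24 h libraries A to D. DN5232_c0_g1, a resilin match, had 3.6, 7.35, 24.1, 0.729 and 12.2 in 42 h libraries A to E, against 1.47, 1.56, 1.47 and 1.07 in 24 h libraries A to D. Here 42 h D was below every 24 h library while the rest were above, and the changes were 1.64 ± 0.49 (SE, adjusted p = 0.00722) and 1.63 ± 0.44 (SE, adjusted p = 0.00387). DN16967_c0_g1, which matches resilin and locust and cockroach cuticle proteins, had 0.303, 5.74, 6.65, 0.12 and 6.41 in 42 h libraries A to E, against 0.382, 0.379, 0.068 and 0.032 in 24 h libraries A to D. Only B, C and E lay above the 24 h range in this gene, and its test too rests on the values that admitted it. The other 6 called genes, DN6249_c0_g1, DN2461_c0_g1, DN2596_c0_g1, DN9055_c1_g1, DN7159_c0_g1 and DN25429_c0_g2, changed by between 1.54 and 0.60, the last 2 again admitted by their 42 h values.

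The call of these 16 genes used the spread of all 6 groups. EdgeR called 24 of the 37 higher, where it called 38.2% of all tested genes higher. The 24 include all 5 genes admitted by their 42 h values. Of the 32 that passed the filter on the other libraries, it called 19 (59.4%), where it called 25.5% of the 3413 genes that did so. With a spread estimated from the 2 stages compared, 4 genes rose (3.4% of all tested genes), DN4296_c0_g1, DN4493_c0_g1, DN794_c0_g1 and DN4852_c0_g1, and 30 did once 42 h D was also left out (51.5%). Median-ratio rescaling gave 11 rises and 2 falls (25% and 13.5% of all tested genes), and quantile normalization 10 and 1 (18.2% and 16.5%). For these scalings and the fits on the 2 stages, genes admitted by their 42 h values were not separated.

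The 42 h libraries spread widely. Over the 37 tested genes, the median ratio to the 24 h mean was 2.13 in 42 h A, 2.87 in B, 7.04 in C, 0.147 in D and 4.91 in E. On the log2(value + 1) scale the median difference from the 24 h mean was 0.80, 1.40, 2.49, -1.45 and 2.03 in A to E. Over all tested genes it was 0.61, 1.04, 1.29, -0.34 and 0.73. Both sets include genes tested only because of their high 42 h values, 5 of them among the 37, which raises these medians. Library C gave the highest 42 h value in 45 of the 48 genes (53.2% of all genes) and D the lowest in 46 (80.1%). From low to high, the libraries stood in the order D, A, B, E and C in 28 of the 48 genes (9.35% of all genes) and in the order D, B, A, E and C in 10 (6.79%). Between C and A alone the median ratio was 5.03, with a range of 0.668 to 21.9. Of the 48 genes, 36 exceeded all 24 h libraries in A (67.7% of all genes did so), 43 in B (69.7%), 48 in C (75.7%), 7 in D (15.1%) and 46 in E (65.4%), and 31 were below all 24 h libraries in D (50.8% of all genes).

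**Figure D4:**
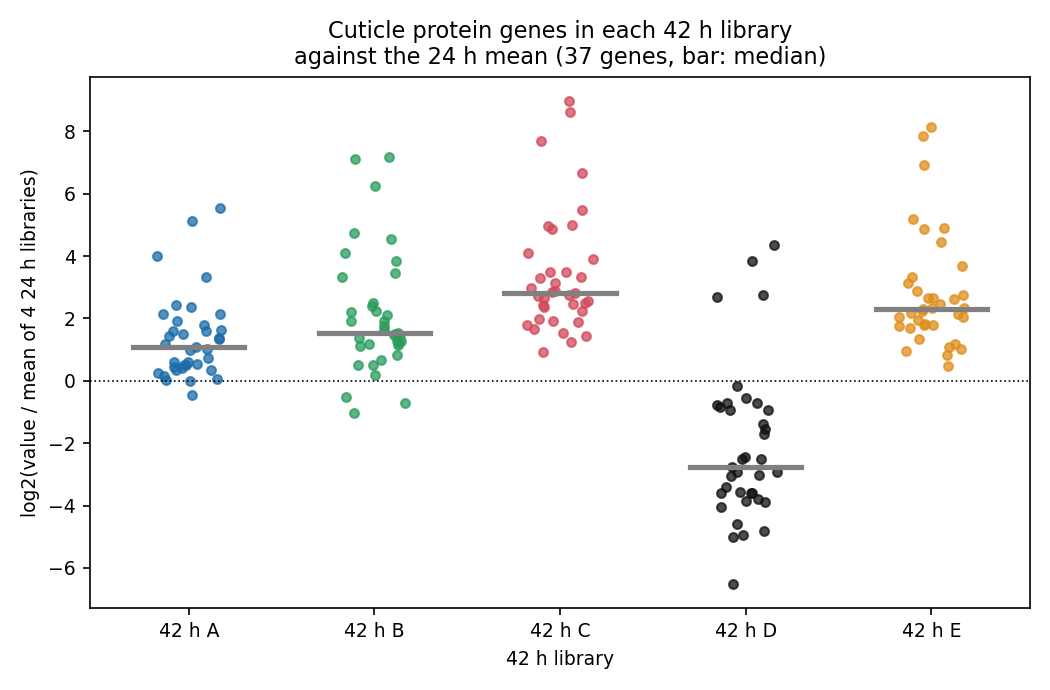
Log2 ratio of each 42 h library to the mean of the 4 24 h libraries for the 37 tested cuticle protein genes (points); grey bars are medians and the dotted line marks equality. Libraries A, B, C and E lie mostly above the line, whereas in D 33 of 37 genes lie under it. The points include 5 genes tested only because of their 42 h values.

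In 42 h D 33 of the 37 tested genes lay under the 24 h mean. The other 4 were DN4296_c0_g1, DN4493_c0_g1, DN794_c0_g1 and DN4852_c0_g1, the genes with values at 3 h well above those at 24 h. Their values in 42 h D were 8.86, 9.17, 9.2 and 0.794, and their 3 h ranges were 3.5 to 11.1, 3.66 to 8.23, 4.86 to 11.6 and 0.717 to 2.1. DN4493_c0_g1 was thus above its 3 h range. Of all 48 cuticle genes, 20 lay within their 3 h range in 42 h D, where 4652 of the 9502 genes in the table did. Against the 7 h libraries, 22 of the 48 lay below all of them and 18 above all (2121 and 3345 of the 9502). Why 42 h D stands apart was not tested.

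By kind of match, the 9 genes with a resilin match (7 tested) had 0 risers and 0 fallers from 3 h to 24 h, and 3 risers at 42 h against 24 h, DN9922_c0_g1, DN5232_c0_g1 and DN16967_c0_g1. Among the 25 genes with other cuticle protein matches (20 tested), 2 fell at 7 h against 3 h, 5 rose at 14 h against 7 h, 2 fell at 24 h against 14 h and 10 rose at 42 h against 24 h. Of the 14 with the domain only (10 tested), 1 fell at 7 h and at 24 h, 2 rose at 14 h and 3 at 42 h. Among all tested genes, 11.1% fell at 7 h, 21.1% rose at 14 h, 9.61% fell at 24 h and 44.9% rose at 42 h. After leaving out 42 h D, 5 of 7 resilin matches, 14 of 20 other matches and 8 of 10 domain-only genes rose at 14 h (41% of all tested genes). At 24 h 2, 3 and 1 rose (12.9%). At 42 h 7 of 7 resilin matches, 20 of 20 other cuticle protein matches and 8 of 10 domain-only genes rose (62.5%). With and without 42 h D, the 42 h counts include the 5 genes that entered the test only through their 42 h values. These were DN16967_c0_g1 among the resilin matches, DN8444_c0_g1 and DN21557_c0_g1 among the other matches, and DN7159_c0_g1 and DN25429_c0_g2 among the domain-only genes. Without 42 h D, 94.9% of all genes admitted in this way rose, and 45.6% of the rest. The differences between the kinds of match were not tested. At 24 h against 14 h the median log2 change was 0.91 in the resilin matches, 0.28 in the other matches and 0.37 in the domain-only genes, with 5 of 7, 14 of 20 and 7 of 10 above 0.

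Quiescent eggs are labelled with the same stage as 7 h eggs, gastrulation, and the family as a whole stood close to the 7 h level in them. None of the 37 tested genes differed between quiescent and 7 h eggs by limma (0.288% of all tested genes were called higher and 0 lower); 3 had an unadjusted p under 0.05, DN794_c0_g1, DN4296_c0_g1 and DN4493_c0_g1, and edgeR called 1 higher (3.36% of all tested genes). The median log2 change was 0.15, against 0.07 for all tested genes, and -0.03 with quantile normalization. DN794_c0_g1, the 1 gene called by edgeR, had 4.17, 6.75 and 7.87 in quiescent libraries A, C and D, against 1.23, 2.24, 1.98, 0.375 and 0.563 in 7 h libraries A to E. All quiescent libraries lay above all 7 h libraries, and their range overlapped that of 3 h eggs. Its log2 change was 1.72 ± 0.54 (SE, adjusted p = 0.232) in limma and 2.29 in edgeR (adjusted p = 0.0443).

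DN4493_c0_g1 had 1.97, 2.32 and 6.9 in quiescent libraries A, C and D, above the 7 h values in each. DN4296_c0_g1 had 2, 6.93 and 5.81 in quiescent libraries A, C and D; quiescent A overlapped the 2 highest 7 h libraries. With DN794_c0_g1 and DN4493_c0_g1, 4 more genes had all quiescent libraries above all 7 h libraries, DN6231_c1_g1, DN5232_c0_g1, DN3226_c0_g1 and DN28345_c0_g1, making 6 of 48 (15% of all genes did so), and 0 genes lay wholly below. For DN6231_c1_g1 the quiescent values were 2.14, 2.11 and 3.28 in quiescent libraries A, C and D, just above the 7 h range of 1.26 to 1.57.

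Against 14 h eggs, quiescent eggs held less of most cuticle transcripts on the deposited scale, as they did of most genes in the table. In 29 of the 48 genes (60.4%) every quiescent library lay below every 14 h library and in 0 above. Of all genes 52.6% lay wholly below and 5.85% wholly above, so the count of 29 is near the share of all genes. The median log2 change over the 37 tested was -0.72, against -0.41 for all tested genes, and it was -0.23 with median-ratio rescaling and -0.17 with quantile normalization. By limma 0 of 37 passed (11.9% of all tested genes were called lower and 5.08% higher), with 6 at an unadjusted p under 0.05 and 3 called lower by edgeR (15.5% of all tested genes), DN6231_c0_g1, DN9055_c1_g1 and DN25429_c0_g2. In the fit without 42 h D, which is in neither group, 17 fell (31.9% of all tested genes did), the lowest adjusted p being that of DN2466_c1_g1, at -1.42 ± 0.29 (SE, adjusted p = 6.12e-04).

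DN2466_c1_g1 had 6.38, 11.3 and 13.6 in quiescent libraries A, C and D, against the 14 h values given above. DN9055_c1_g1 had 0.458, 0.936 and 0.583 in quiescent libraries A, C and D. In both genes each quiescent library was well below the lowest 14 h library. Quiescent A gave the lowest quiescent value in 38 of the 48 genes (49.5% of all genes). Set against the 24 h libraries, sampled at a like age, the quiescent libraries lay wholly above in 3 of the 48 genes, DN794_c0_g1, DN4296_c0_g1 and DN4493_c0_g1 (8.07% of all genes did so), and wholly below in 30 (37.3%).

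**Figure D5:**
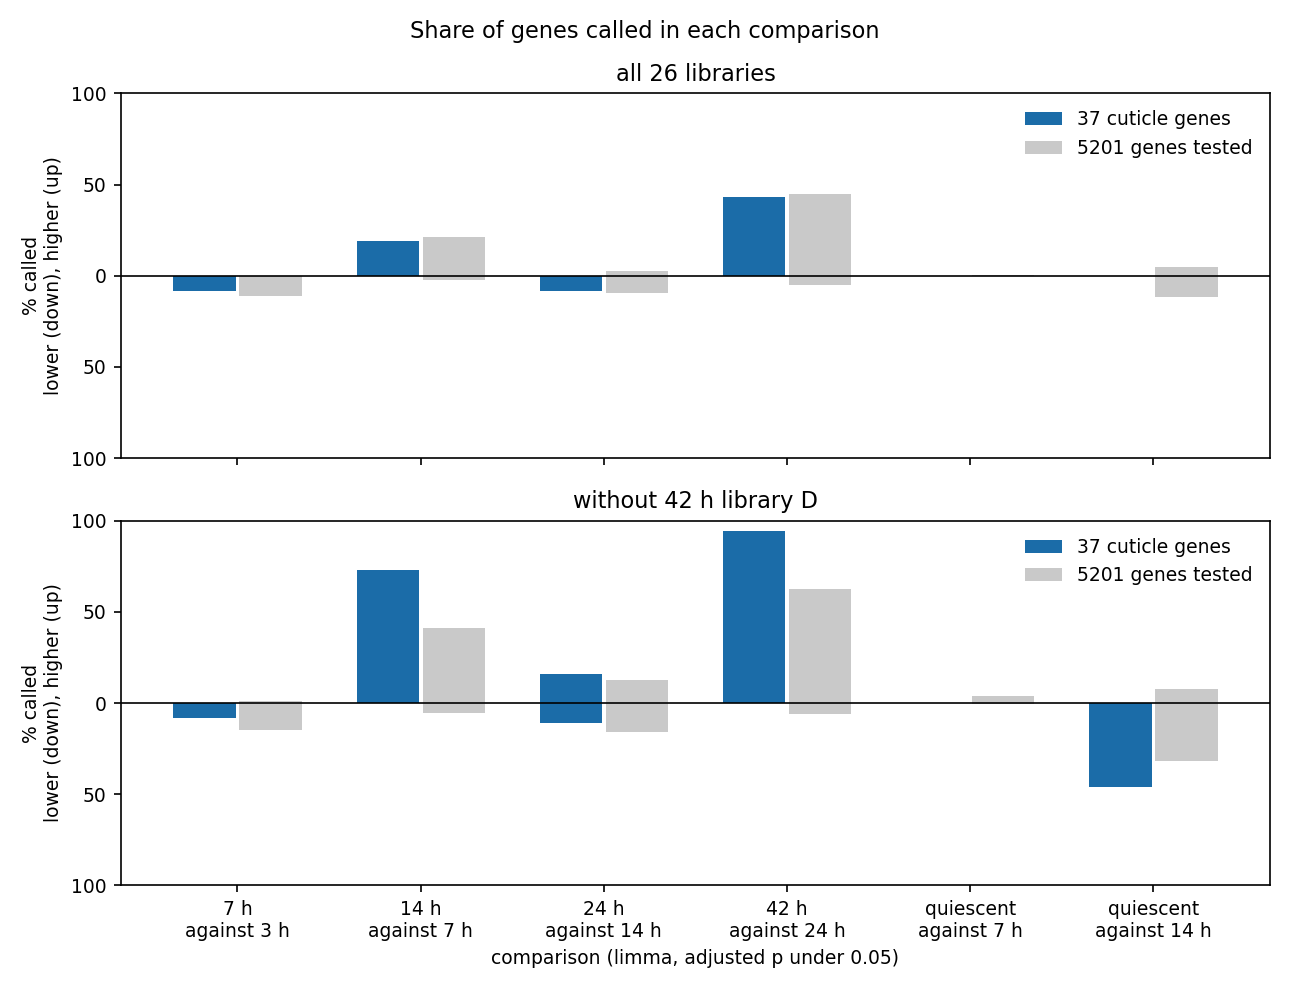
Percent of genes called higher (up) and lower (down) by limma in each comparison, for the 37 tested cuticle protein genes (blue) and all 5201 tested genes (grey), with all 26 libraries (top) and without 42 h D (bottom). With all libraries the blue bars are near or under the grey ones. Without 42 h D the blue bars reach 73.0% at 14 h against 7 h (grey 41%) and 94.6% at 42 h against 24 h (grey 62.5%). Blue bars for 42 h include 5 genes tested only because of their 42 h values, and grey bars include genes admitted in the same way.

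Other genes of chitin and cuticle handling were set beside the family. They passed the same value filter, which 1788 of all tested genes met only with the 42 h libraries. Of those 1788, 80.8% were called higher at 42 h against 24 h, and 94.9% without 42 h D. Genes of the lists below that entered in this way were not separated, so the 42 h calls on these lists carry that limit. Of 44 genes with the CBM_14 domain, a chitin-binding fold of other proteins, 31 were tested; 7 rose at 14 h against 7 h (21.1% of all tested genes did), 3 fell at 24 h against 14 h (9.61%) and 10 rose at 42 h against 24 h (44.9%). In the fit without 42 h D, 15 of the 31 rose at 14 h (41%), 6 rose and 5 fell at 24 h (12.9% and 16.1%) and 27 rose at 42 h (62.5%). Of 19 genes of chitin breakdown, 12 were tested, with 5 rises, 3 falls and 8 rises over the same steps, and without 42 h D 8 rises, 5 falls and 9 rises. The chitinase match DN5228_c0_g1 had means of 1.3, 0.217, 5.32, 0.508 and 4.44 from the first stage to the last. Its log2 changes were 2.33 ± 0.35 (SE, adjusted p = 1.84e-05), -2.06 ± 0.37 (SE, adjusted p = 3.71e-04) and 1.65 ± 0.35 (SE, adjusted p = 7.66e-04) over the last 3 steps. DN1964_c0_g1, with a chitinase domain (Glyco_hydro_18), rose by 2.73 ± 0.48 (SE, adjusted p = 2.87e-04) at 42 h against 24 h, and DN17465_c0_g1, with the CBM_14 domain only, by 1.67 ± 0.21 (SE, adjusted p = 1.42e-06) at 14 h against 7 h.

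Of 11 chitin deacetylation genes, 6 with a polysaccharide deacetylase domain and 5 with a silkworm chitin deacetylase match only, 10 were tested. DN2885_c0_g1, a silkworm chitin deacetylase match, rose by 1.40 ± 0.44 (SE, adjusted p = 0.0213) at 14 h against 7 h and by 1.88 ± 0.44 (SE, adjusted p = 0.00134) at 42 h against 24 h. DN4958_c0_g1, whose match is a bacterial enzyme, fell at 7 h against 3 h by 2.80 ± 0.30 (SE, adjusted p = 6.34e-08). Of 6 chitin synthesis genes 2 were tested, and DN14123_c0_g1, a chitin synthase match, rose by 0.85 ± 0.20 (SE, adjusted p = 0.00133) at 42 h against 24 h. Of 10 genes of the apical matrix, the layer outside the epidermal surface, 5 were tested, with 1 fall at 7 h (DN8707_c0_g1) and 2 rises at 14 h (DN4050_c0_g1 and DN14110_c0_g1). In quiescent against 14 h eggs 3 CBM_14 and 3 chitin breakdown genes fell (11.9% of all tested genes did) and 1 gene of the deacetylase domain, DN4958_c0_g1, rose; against 7 h eggs 0 of the 60 tested genes of these lists changed by limma, and edgeR called 1 higher. Leaving out 42 h D gave 48 rises among the 60 at 42 h against 24 h (62.5% of all tested genes rose), and all libraries 20 (44.9%). Both counts include any gene that entered the test only through its 42 h values. The moulting hormone list held 1 gene, which was not tested, and the list of cuticle hardening and tanning held 0.

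Of the 48 genes, 11 were not tested, with highest values from 0.517 to 1.95 in any library. In 9 of them the highest value stood in 42 h C, at 1.8 for DN29432_c0_g1, 1.77 for DN26661_c0_g1, 1.5 for DN30196_c0_g1, 1.39 for DN47997_c0_g1, 1.25 for DN25314_c0_g1, 0.734 for DN30803_c0_g1, 0.61 for DN30083_c0_g1, 0.569 for DN28345_c0_g1 and 0.517 for DN69715_c0_g1. DN47259_c0_g1 was highest in 42 h E, at 1.95. Of the 11, DN26661_c0_g1 and DN47997_c0_g1 lay above all 24 h libraries in every 42 h library. In 42 h D this gap is within counting error. DN26661_c0_g1 had 8 reads there and 8 in 24 h C, and DN47997_c0_g1 had 6 there and 7 in 24 h A. The 11 were low elsewhere: apart from DN50616_c0_g1 at 14 h, no group mean outside 42 h was above 0.211.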

How the data were processed

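The authors deposited normalized signal values per gene of a de novo assembly for all 26 libraries, in a table of 9502 genes that, per the labels, differed among the subitaneous samples (alpha 0.001, fold change 2). RNA (0.3 µg, RNeasy) went into TruSeq libraries, per the labels' protocols. bcl2fastq and edgeR appear in the submitters' processing notes. What aligned, counted and scaled these reads is not given in the sources used here. This signal keeps whole reads: of the values of up to 2000 reads, 100% in each library were whole within 0.1 of a read. The number of columns left unused was 0.

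The 48 genes were found by the domain field of the identifier. A value of 1 or more in 3 or more libraries was required. The 5201 genes left were fitted in limma 3.58.1 under R 4.3.3 (log2 of value plus 1, a term for group, all 26 libraries, trended robust eBayes) with Benjamini-Hochberg adjustment, and calls are at adjusted p under 0.05. Log2 changes on this scale understate those of low genes. Alternatives were edgeR 4.0.16 (quasi-likelihood) and DESeq2 1.42.0 on the recovered reads, a pseudocount of 0.1, no filter or a filter at 5, median-ratio and quantile scaling, library weights, the 2 groups alone, a replicate block, a term for sequencing set, each set alone, and leaving out each library. The sets (letters A and B; C, D and E) were inferred from sample sheet numbers. A further 3 fits without 42 h D were added after seeing the data. The fit was tested on simulated data.

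The genes, the pathway lists and the tests were chosen with earlier results of these data known. Library values are given for up to 5 called genes per direction and comparison with the largest change (up to 10 for 42 h against 24 h), the 3 genes of highest mean and each gene not highest at 42 h; further genes were named after their values were seen. Sequences of the assembly were not used here.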

Additional observations from a re-analysis of the deposited data

Results flagged for a closer look

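In 105 groups of 4 or 5 libraries (20 of the cuticle genes and the sum over all 48), the gap between the most extreme library and its nearest neighbour was set against the whole range of the group. Chance alone flags about 1 in 20 such groups, and genes of a library are not independent of each other; 17 groups stood out. Library 3 h C was the high one in 6 of them, with gaps of 0.752 of the range in DN2461_c0_g1, 0.763 in DN3412_c0_g1, 0.841 in DN3412_c1_g1, 0.729 in DN4493_c0_g1, 0.745 in DN4852_c0_g1 and 0.728 in the sum over all 48 genes, where it had 215 against at most 145 in the other 3 h libraries. Library 14 h E was the high one in DN4296_c0_g1 (0.834), DN50616_c0_g1 (0.901) and DN9055_c1_g1 (0.884).

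DN8444_c0_g1 had a lone high library in each of 4 stages, 3 h D (0.844, at a value of 0.511), 7 h A (0.918, at 0.389), 14 h B (0.919, at 0.227) and 24 h C (0.98, at 0.697). Single high libraries also appeared at 24 h in DN6231_c1_g1 (B, 0.874) and DN9922_c0_g1 (C, 0.834). In DN50616_c0_g1, 7 h A (gap 1) was the single 7 h library above 0, at 0.01, and 24 h D (gap 0.9) the single 24 h library at 0; both differ from their neighbours by about 1 read.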

How the results depend on the processing

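No gene called in a comparison changed direction under any alternative. Counts of cuticle genes called moved more. Some counts close to those of the main fit are left out below. Percentages in brackets are the shares of all tested genes called in the same direction. They are not given for DESeq2, the pseudocount of 0.1, the fit without a filter or library weights. A count without that share does not describe the family as such. Where the filter was used, counts and shares at 42 h may include genes that entered the test only through their 42 h values. EdgeR gave 5 falls at 7 h against 3 h (16.4%), 19 rises at 14 h (42.7%) and 24 rises at 42 h (38.2%). It gave 1 rise in quiescent against 7 h (3.36%) and 3 falls against 14 h (15.5%). DESeq2 gave 7 falls at 7 h, 9 rises and 1 fall at 14 h, and 5 rises and 5 falls at 24 h. It gave 14 rises and 2 falls at 42 h, 2 rises in quiescent against 7 h, and 1 rise and 1 fall against 14 h. A pseudocount of 0.1 gave 17 rises at 14 h and 1 fall in quiescent against 14 h; no filter gave 25 rises at 42 h and 1 fall in quiescent against 14 h. Median-ratio rescaling gave 6 falls at 7 h (16.9%), 5 rises and 1 fall at 14 h (22.6% and 11.3%), and 3 rises and 4 falls at 24 h (9.02% and 15.4%). It gave 11 rises and 2 falls at 42 h (25% and 13.5%), and 1 fall in quiescent against 14 h (10.5%). Quantile normalization gave 1 rise and 3 falls at 7 h (11.2% and 9.31%), and 4 rises and 1 fall at 14 h (15.4% and 19.5%). It gave 6 rises and 4 falls at 24 h (17% and 11.8%), and 10 rises and 1 fall at 42 h (18.2% and 16.5%). With only the 2 groups compared there were 9 falls at 7 h (27.6%), 31 rises at 14 h (59.7%), 7 rises at 24 h (11.8%) and 4 rises at 42 h (3.4%). Those fits also gave 2 rises in quiescent against 7 h (12.2%) and 22 falls against 14 h (44.3%). Library weights gave 1 rise and 8 falls at 7 h, then 30, 17 and 36 rises at 14 h, 24 h and 42 h, 8 rises in quiescent against 7 h and 23 falls against 14 h. The cause of these shifts was not tested.

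Within sequencing sets, libraries A and B gave 0 falls at 7 h, 5 rises at 14 h, 4 rises and 1 fall at 24 h, and 17 rises at 42 h. In that set quiescent A alone stood for quiescent eggs, and the median log2 change against 14 h was -0.77. Libraries C, D and E gave 0 falls at 7 h, 3 rises at 14 h, 2 falls at 24 h and 3 rises at 42 h. Each fit had fewer libraries, and the shares of all tested genes are not given for them. Without 42 h D, edgeR gave 6 falls at 7 h (24.3%), 32 rises at 14 h (55.7%), and 6 rises and 5 falls at 24 h (9.94% and 12.8%). It gave 35 rises at 42 h (53%), 2 rises in quiescent against 7 h (9.63%) and 22 falls against 14 h (41.1%). Quantile normalization without 42 h D gave 5 rises at 7 h, 1 fall at 14 h, 10 rises at 24 h, 1 fall at 42 h and 6 falls in quiescent against 14 h. Other counts of that fit, and its shares of all tested genes, are not listed here. The 2 groups alone without 42 h D gave 30 rises at 42 h (51.5%).

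Leaving out 1 library at a time gave 1 to 3 falls at 7 h, 3 to 27 rises at 14 h, 0 to 6 rises and 3 to 4 falls at 24 h, 13 to 35 rises at 42 h, and 0 to 17 falls in quiescent against 14 h (1 without 14 h B); the upper ends of the rises and of the last range are without 42 h D; leaving out any other library gave at most 11, 0 and 16 rises. Counts of 0 elsewhere were kept: 0 rises at 7 h, 0 falls at 14 h and 42 h, 0 calls in quiescent against 7 h and 0 rises against 14 h. Without 42 h D, 41% of all tested genes rose at 14 h, 12.9% at 24 h and 62.5% at 42 h. In quiescent against 14 h eggs, 31.9% fell in that fit. For the other fits with 1 library left out, these shares are not given.

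Of the other chitin and cuticle genes 60 were tested, and brackets again give shares of all tested genes. The main counts were 2 falls at 7 h (11.1%), 15 rises at 14 h (21.1%), 6 falls at 24 h (9.61%) and 20 rises at 42 h (44.9%). In quiescent against 14 h they were 1 rise and 6 falls (5.08% and 11.9%). EdgeR gave 10 falls at 7 h (16.4%), 24 rises at 14 h (42.7%) and 3 falls at 24 h (6.5%). For quiescent eggs it gave 1 rise against 7 h (3.36%), and 0 rises and 13 falls against 14 h (3.11% and 15.5%). Quantile normalization gave 7 rises and 4 falls at 7 h (11.2% and 9.31%), and 12 rises and 8 falls at 14 h (15.4% and 19.5%). It gave 19 rises and 10 falls at 24 h (17% and 11.8%), and 15 rises and 13 falls at 42 h (18.2% and 16.5%). The 2 groups alone gave 1 rise and 16 falls at 7 h (6.48% and 27.6%), and 53 rises and 1 fall at 14 h (59.7% and 6%). They gave 4 rises and 14 falls at 24 h (11.8% and 16.2%) and 1 rise at 42 h (3.4%). In quiescent eggs there were 4 rises and 1 fall against 7 h (12.2% and 1.87%), and 33 falls against 14 h (44.3%). Without 42 h D the counts were 0 and 3, 27 and 1, 8 and 11, 48 and 0, 1 and 0, and 1 and 20 in the same order of comparisons, rises first. The shares of all tested genes in that order were 1.33% and 14.6%, 41% and 5.21%, 12.9% and 16.1%, 62.5% and 6.21%, 3.83% and 0.404%, and 7.77% and 31.9%. Counts and shares at 42 h include any gene that entered the test only through its 42 h values.

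With the library letter as a replicate block there were 3 falls at 7 h, 5 rises at 14 h, 3 falls at 24 h and 14 rises at 42 h. Shares of all tested genes are not given for this fit, so these counts do not describe the family as such. The letters were not taken to pair the libraries, since the labels tie them to no shared animal or day (the sequencing sets were inferred). Of 56 same-letter pairs 24 had a correlation of deviations over 0.1 (range -0.466 to 0.501, median 0.0759, against -0.0384 for pairs of other letters), and 9 of 26 libraries correlated best with their own letter.

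The 11 untested genes, with values of at most 1.95, were left out by the value filter. Technical replicates, selection of genes by the authors, unknown scaling and assembly clusters that may share reads limit all results.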
